A study of Homo sapiens with 6 samples.

Results

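The 10 human genes described here carry small nucleolar RNAs (snoRNAs) in their introns and are annotated as noncoding, and their RNA was followed after depletion of PSF. They are GAS5, ZFAS1, SNHG1, SNHG5, SNHG6, SNHG8, SNHG12, SNHG15, SNHG16 and EPB41L4A-AS1. The genes were chosen by name, and all 10 were present among the 21301 genes of the deposited table. A snoRNA host gene is transcribed and spliced like any other gene, and the snoRNA is trimmed out of the excised intron. Box C/D snoRNAs guide ribose methylation and box H/ACA snoRNAs guide pseudouridylation of ribosomal RNA, so the hosts are tied to ribosome production. The spliced exons of many noncoding hosts begin, like ribosomal protein mRNAs, with a 5′ terminal run of pyrimidines (a TOP start), are engaged by ribosomes over short reading frames and are cleared by nonsense-mediated decay.

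RNA was sequenced from SH-SY5Y cells, a human neuroblastoma line of noradrenergic neuronal character, 72 h after transfection with a control siRNA (siControl) or with 1 siRNA against PSF (siPSF) at 10 nM. Each group held 3 libraries of the same line, described as biological triplicates, and no further treatment was given. PSF is the protein of SFPQ, a nuclear RNA-binding protein of paraspeckles that takes part in transcription and splicing. The comparison asked how the RNA levels of the hosts differed between PSF-depleted and control cells.

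SFPQ itself stood at 372, 356 and 401 CPM in siControl and at 209, 193 and 165 CPM in siPSF, where CPM is a gene's read count scaled to 1e+06 counts per library with edgeR's TMM factors. This was a log2 fold change of -0.99 (SE 0.0996, adjusted p = 9.5e-05, edgeR's quasi-likelihood test), which left 50.2% of the control level. Total counts ran from 101540520 to 132420931 per library, and no row held a count of 0. Of 12 noradrenergic markers 12 were in the table, with summed levels of 5471 to 6040 CPM in siControl and 4844 to 5926 CPM in siPSF. None of the 3 blood markers was in the table. The 5 fibroblast markers summed to between 42.8 and 61.9 CPM in siControl and between 41.7 and 47.8 CPM in siPSF, and their part in the results was not tested. In bulk RNA, fewer cells of a type and less RNA per cell cannot be told apart.

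Sequences of 2 kinds are shown for these genes. The first is the snoRNA in the intron, shown by 3 examples from GAS5, SNHG1 and SNHG8 that were picked so that the short boxes could be seen. They were read from GRCh38 on the strand of the host, and the capitals mark box C (TGATG) and box D (CTGA) in the box C/D examples and the ACA box in the H/ACA example.
SNORD47 in GAS5, chr1:173864369-173864445, minus strand: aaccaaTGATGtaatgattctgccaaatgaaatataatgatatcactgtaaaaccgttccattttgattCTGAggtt
SNORD31 in SNHG1, chr11:62853326-62853393, minus strand: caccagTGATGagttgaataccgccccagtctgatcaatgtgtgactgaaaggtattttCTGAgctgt
SNORA24 in SNHG8, chr4:118279190-118279320, plus strand: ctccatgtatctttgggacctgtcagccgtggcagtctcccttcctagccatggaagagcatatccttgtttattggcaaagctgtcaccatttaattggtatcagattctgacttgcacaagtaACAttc

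The second is the listed start of the host. RefSeq promoter sequences (GRCh38.p14) were at hand for 8 hosts, and SNHG6 and SNHG15 are only named here. A pyrimidine start was taken as a C followed by at least 4 further pyrimidines on the gene's strand within 5 bases of the listed start, and a TATAA within bases -40 to -16 was looked for on both strands. Both definitions were chosen after the sequences and the expression values of the hosts had been seen. The 5 hosts with a pyrimidine start are shown from 40 bases before the listed start to 50 bases after it, with SNHG1, which had neither, for contrast. GAS5 and EPB41L4A-AS1, both called higher below, also had neither and are not printed. Capitals mark the pyrimidine start and, where found, TATAA.
ZFAS1, chr20:49278602-49278691, plus strand: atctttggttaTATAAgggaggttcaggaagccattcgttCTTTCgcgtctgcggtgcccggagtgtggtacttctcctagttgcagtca
SNHG5, chr6:85678684-85678773, minus strand: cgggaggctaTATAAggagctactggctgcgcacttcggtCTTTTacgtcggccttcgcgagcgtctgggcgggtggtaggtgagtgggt
SNHG8, chr4:118278722-118278811, plus strand: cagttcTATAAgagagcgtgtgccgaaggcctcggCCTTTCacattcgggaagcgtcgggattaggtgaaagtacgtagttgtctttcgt
SNHG12, chr1:28581824-28581913, minus strand: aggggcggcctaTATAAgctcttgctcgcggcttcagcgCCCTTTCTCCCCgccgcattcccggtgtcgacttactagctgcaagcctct
SNHG16, chr17:76557724-76557813, plus strand: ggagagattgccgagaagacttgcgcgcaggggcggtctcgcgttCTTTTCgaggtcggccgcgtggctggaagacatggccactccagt
SNHG1, chr11:62855836-62855925, minus strand: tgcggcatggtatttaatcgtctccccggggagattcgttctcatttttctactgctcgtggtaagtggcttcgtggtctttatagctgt

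A pyrimidine start was found in 5 of the 8 hosts, against 21.1% of the 27303 promoters of the same length in the RefSeq table. TATAA was found in ZFAS1, SNHG5, SNHG8 and SNHG12, against 4.22% of all promoters, and its reverse complement TTATA in ZFAS1 alone, overlapping the forward match, against 1.73%. The listed start is 1 of several in some hosts. In ZFAS1 and SNHG12 it lies inside the gene as placed below, whose 5′ end is at base 49278178 and 28582983. The matches in these hosts are therefore not at that 5′ end. RefSeq and GENCODE 5′ ends lie 163 bases apart in GAS5, 199 in SNHG5, 149 in SNHG12 and 68 in SNHG1. They lie 59 bases apart in SNHG8 and 37 in SNHG16, and coincide in ZFAS1 and EPB41L4A-AS1. A match or its absence, in GAS5 and SNHG1 too, says only whether these letters are at the start searched.

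Of the 10 hosts, 7 were higher in the siPSF libraries at an adjusted p under 0.05 and none was lower, where 6.65% of the 19694 genes tested were called higher and 8.27% lower. Among 3153 long noncoding RNA genes tested, 5.74% were called higher and 9.77% lower. The hosts were far more abundant than most of these, with 9 of the 10 among the 50 highest of 3446. A change is harder to call at lower counts, so the shares are not at like abundance. At an unadjusted p under 0.05, 8 hosts were higher and 0 lower, and DESeq2 and limma also called 7 higher and 0 lower. The median log2 fold change of the 10 hosts was 0.54, beside 0.01 over all genes tested and -0.07 over the long noncoding RNA genes. The called rises lay between 1.44-fold and 1.70-fold. In 8 hosts every siPSF library was above every siControl library, as was the case for 16.7% of all genes tested.

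**Figure D1:**
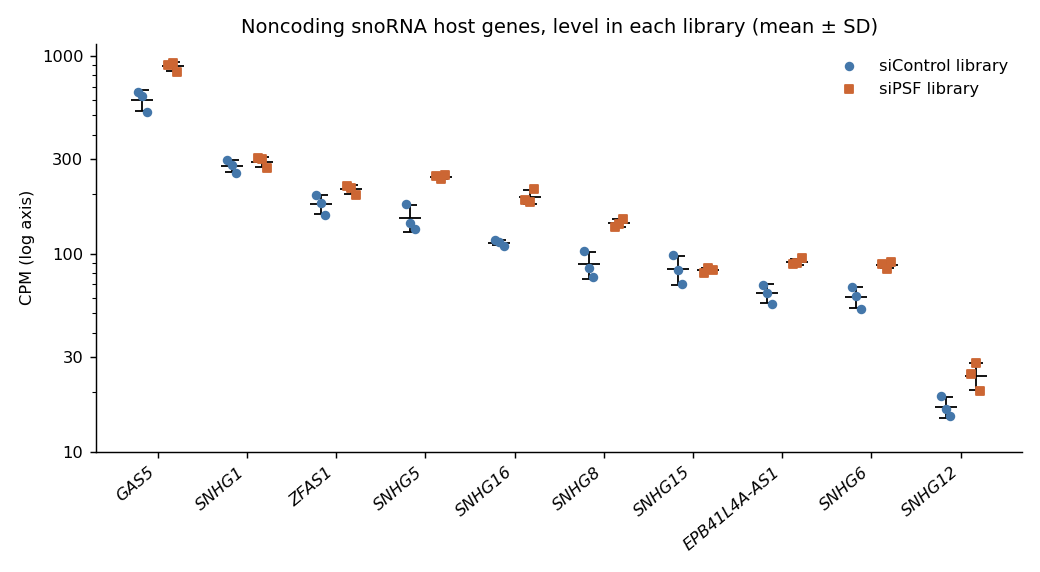
Level of each host in each library in CPM on a log axis, with circles for siControl, squares for siPSF, and bars for the mean ± SD of 3 libraries. The siPSF squares lie above the siControl circles in 8 hosts and overlap them in SNHG1 and SNHG15.

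SNHG16 (gene ID 100507246, chr17:76557764-76565348, plus strand), which holds 3 box C/D snoRNAs of the SNORD1 family, gave 117, 114 and 110 CPM in siControl and 187, 182 and 212 CPM in siPSF. The groups did not overlap, and the siControl libraries were the tightest of any host, with a coefficient of variation of 3.02%. Its log2 fold change was 0.77 (95% interval 0.58 to 0.95, adjusted p = 0.000193, edgeR), and only 3.96% of the genes tested rose by more.

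SNHG8 (gene ID 100093630, chr4:118278762-118279823, plus strand), the host of the H/ACA snoRNA SNORA24 printed above, gave 104, 84.6 and 76.7 CPM in siControl and 137, 142 and 150 CPM in siPSF. All siPSF libraries were above all siControl libraries, which were themselves spread by 15.8% of their mean. The log2 fold change was 0.69 (95% interval 0.46 to 0.93, adjusted p = 0.0014, edgeR).

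SNHG5 (gene ID 387066, chr6:85677007-85678733, minus strand), the host of SNORD50A and SNORD50B, gave 179, 144 and 134 CPM in siControl and 247, 238 and 251 CPM in siPSF. The siPSF libraries were close together and lay above every siControl library. The log2 fold change was 0.69 (95% interval 0.46 to 0.92, adjusted p = 0.0012, edgeR), nearly that of SNHG8.

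GAS5 (gene ID 60674, chr1:173863901-173869045, minus strand), named for its rise in growth-arrested cells and host of 11 snoRNAs, was the most abundant of the 10. It gave 657, 624 and 520 CPM in siControl and 904, 921 and 830 CPM in siPSF. The lowest siPSF library was above the highest siControl library, and the log2 fold change was 0.56 (95% interval 0.34 to 0.78, adjusted p = 0.0032, edgeR).

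SNHG6 (gene ID 641638, chromosome 8), which carries the box C/D snoRNA SNORD87, gave 67.8, 60.9 and 52.7 CPM in siControl and 89.3, 84.1 and 90.8 CPM in siPSF. The groups were apart, with a log2 fold change of 0.54 (95% interval 0.33 to 0.76, adjusted p = 0.0035, edgeR).

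EPB41L4A-AS1 (gene ID 114915, chr5:112160526-112162501, plus strand), which lies within EPB41L4A on the opposite strand and carries SNORA13, gave 69.8, 63.3 and 55.9 CPM in siControl and 88.8, 89.4 and 94.9 CPM in siPSF. No siPSF library reached down to the siControl range, and the log2 fold change was 0.53 (95% interval 0.33 to 0.73, adjusted p = 0.0029, edgeR).

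SNHG12 (gene ID 85028, chr1:28578538-28582983, minus strand), with 1 box C/D and 3 H/ACA snoRNAs, was the least abundant host and gave 19.0, 16.4 and 15.1 CPM in siControl and 24.6, 27.9 and 20.3 CPM in siPSF. The lowest siPSF library was just above the highest siControl library. Its log2 fold change of 0.53 (95% interval 0.24 to 0.81, adjusted p = 0.0186, edgeR) was the least secure of the called rises: the call was lost without siControl replicate 2 (adjusted p = 0.085), siControl replicate 3 (0.086) or siPSF replicate 2 (0.067), with log2 fold changes of 0.41 to 0.64 over all such fits.

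ZFAS1 (gene ID 441951, chr20:49278178-49289260, plus strand), which starts beside ZNFX1 in the opposite direction and holds SNORD12, SNORD12B and SNORD12C, gave 198, 180 and 157 CPM in siControl and 220, 215 and 199 CPM in siPSF. The groups did not overlap, but siPSF replicate 3 was only just above siControl replicate 1. The log2 fold change of 0.25 (95% interval 0.04 to 0.45) did not pass the threshold (adjusted p = 0.105, edgeR), nor in any fit without 1 library.

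SNHG1 (gene ID 23642, chr11:62851978-62855885, minus strand), which holds 8 box C/D snoRNAs next to SLC3A2, gave 298, 282 and 256 CPM in siControl and 304, 300 and 271 CPM in siPSF. The groups overlapped, with a log2 fold change of 0.07 (95% interval -0.13 to 0.26, adjusted p = 0.66, edgeR). That interval lies below the point estimate of each of the 7 called hosts.

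SNHG15 (gene ID 285958, chromosome 7), the host of SNORA9, gave 98.1, 82.4 and 70.4 CPM in siControl and 80.3, 85.2 and 82.4 CPM in siPSF. All siPSF libraries lay within the siControl range, and the log2 fold change was -0.02 (95% interval -0.26 to 0.22, adjusted p = 0.94, edgeR).

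Within siControl, replicate 1 was the highest and replicate 3 the lowest library for 10 of 10 hosts, so their spreads within a group are not independent of each other. No such common order was seen in siPSF. The summed level of the 10 hosts was 1806, 1651 and 1448 CPM in siControl and 2282, 2285 and 2200 CPM in siPSF. GAS5 made up between 35.9% and 37.8% of this sum in siControl and between 37.7% and 40.3% in siPSF. Without siControl replicate 3 the median log2 fold change of the hosts was 0.45, and without siControl replicate 1 it was 0.63.

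Between genes, levels were compared on the deposited FPKM scale, which corrects for length. In siControl the order was GAS5 (907 ± 92.9 FPKM, SD, n = 3), SNHG5 (279 ± 39.7), SNHG1 (217 ± 13.0), ZFAS1 (187 ± 17.5), SNHG8 (139 ± 19.2), SNHG15 (90.9 ± 13.8), SNHG6 (80.5 ± 8.43), EPB41L4A-AS1 (49.1 ± 4.53), SNHG16 (42.3 ± 0.56) and SNHG12 (17.6 ± 2.06). Only SNHG15 and SNHG6 overlapped among neighbours in this order. In siPSF, GAS5 reached 1267 ± 80.4 FPKM and SNHG5 427 ± 12.9 FPKM. SNHG1 (217 ± 13.9 FPKM), SNHG8 (216 ± 12.1) and ZFAS1 (212 ± 10.9) then overlapped, whereas SNHG6 (111 ± 4.95) stood apart from SNHG15 (85.4 ± 1.89). SNHG16 (68.3 ± 5.34 FPKM) and EPB41L4A-AS1 (67.3 ± 2.15) overlapped, and SNHG12 was again lowest at 24.0 ± 4.04 FPKM. On CPM, 9 of the 10 were among the 50 highest of 3446 long noncoding RNA genes.

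To compare hosts without any scaling between libraries, each was divided by SNHG1 in the same library, a reference picked after the values had been seen because it was abundant and near its control level. GAS5 counted 2.20, 2.22 and 2.03 times SNHG1 in siControl and 2.97, 3.07 and 3.06 times in siPSF. The SNHG16 ratio was 0.392, 0.406 and 0.429 in siControl and 0.615, 0.607 and 0.780 in siPSF. Both ratios were higher in every siPSF library. Of 9 ratios, 8 were higher without overlap between the groups, as were 10.2% of the ratios of all other genes tested to SNHG1 (19.8% were lower without overlap), ZFAS1 included (log2 difference 0.18), and their log2 differences reached 0.70 in SNHG16. Each of the 8 had the smallest p that 3 against 3 libraries allow (two-sided exact permutation p = 0.1, Benjamini-Hochberg adjusted 0.1125 over the 9), so the design could not pass the threshold. With a reference chosen for its flat level, the ratios restate the fold changes above without scaling and are no separate evidence. The SNHG15 ratio overlapped (log2 difference -0.07, exact permutation p = 0.5, adjusted 0.5).

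**Figure D2:**
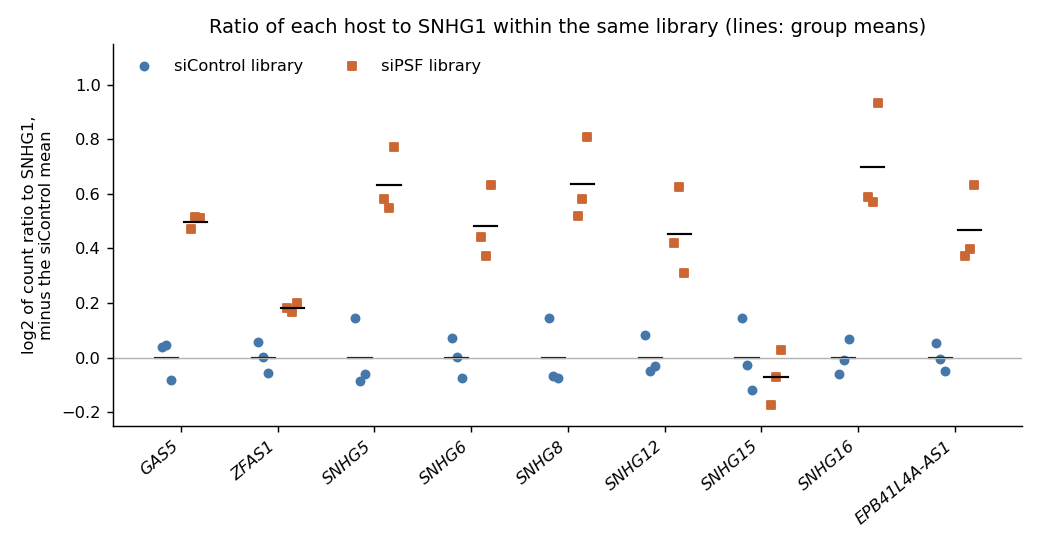
Log2 of each host's count divided by the SNHG1 count of the same library, minus the siControl mean, with circles for siControl libraries, squares for siPSF libraries and lines for group means. All squares lie above all circles except in SNHG15, and GAS5 and ZFAS1 are the tightest of the siPSF groups.

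RefSeq places 35 snoRNA genes inside the 10 hosts by position, of which 34 were in the table and 30 passed the filter on low counts. These libraries were selected for poly(A), which mature snoRNAs lack, so the counts are not a measure of mature snoRNA. Counts on nested snoRNAs came to 4.34% of the host count at most. By edgeR 1 of the 30 was called higher and 0 lower, where 6.65% of all genes tested were called higher and 8.27% lower. At an unadjusted p under 0.05 there were 3, beside 2835 genes higher and 3026 lower of the 19694 tested. The median log2 fold change of the 30 was 0.19. The counts by DESeq2 were 1 higher and 0 lower, and by limma on log2(FPKM + 0.5) 4 higher and 2 lower.

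The called snoRNA was SNORD47 of GAS5, whose sequence is printed above. It gave 4.57, 5.11 and 5.76 CPM in siControl and 7.72, 6.24 and 8.47 CPM in siPSF. The groups did not overlap, and the log2 fold change was 0.54 (SE 0.148, adjusted p = 0.029, edgeR), beside 0.56 for GAS5. The call was lost with no filter on low counts and without siControl replicate 1, siControl replicate 2, siPSF replicate 1 or siPSF replicate 3. SNORD81 (0.45, adjusted p = 0.082) and SNORD80 (0.37, adjusted p = 0.095), also of GAS5, were the other two with an unadjusted p under 0.05. Over its 11 snoRNAs GAS5 went from 17.1 ± 0.93 CPM in the control cells to 22.5 ± 1.78 CPM after siPSF (SD, n = 3). Over all 183 snoRNA rows tested in the table, 4 were called higher and 1 lower, with a median of 0.14.

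Nested snoRNA counts per 1000 host counts were on average lower in siPSF for 9 of the 10 hosts. In SNHG16 they were 3.80, 2.88 and 3.54 in siControl and 1.89, 2.08 and 1.63 in siPSF. In SNHG12 they were 35.0, 43.4 and 42.5 in siControl and 32.6, 28.2 and 33.0 in siPSF. The groups did not overlap in these hosts, nor in ZFAS1 and SNHG5, where the siPSF libraries were also lower. In ZFAS1 and SNHG16 they rest on 13 to 54 snoRNA counts per library and in SNHG5 on 19 to 37. SNHG15 went the other way, from 4.27, 5.19 and 5.19 to 6.50, 5.56 and 5.91 without overlap. For GAS5 (log2 difference -0.17) and SNHG1 (-0.14), which held the most counts, the groups overlapped. With 3 libraries a group no exact permutation p could go below 0.1. The host count is the denominator, so a rise of the host alone lowers these ratios. Mean nested counts themselves went from 0.388 CPM in siControl to 0.359 in siPSF in SNHG16 and from 0.314 to 0.203 in ZFAS1. They went up in SNHG12 (0.674 to 0.752) and SNHG5 (0.200 to 0.255). How often such ratios do not overlap in other genes that hold snoRNAs was not computed.

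**Figure D3:**
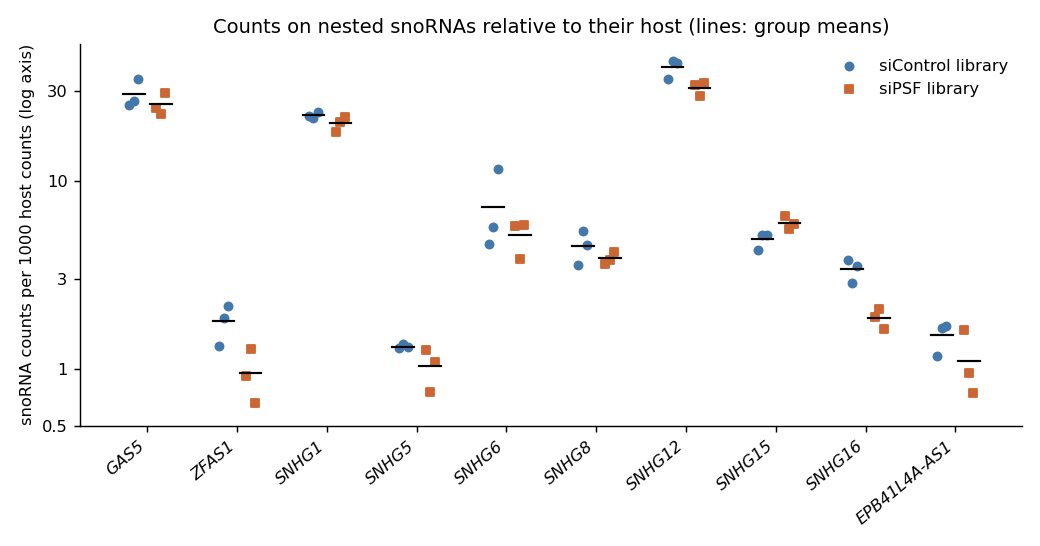
Counts on the snoRNA genes nested in each host per 1000 counts on the host itself, on a log axis, with circles for siControl libraries, squares for siPSF libraries and lines for group means. The squares lie below the circles without overlap in ZFAS1, SNHG5, SNHG12 and SNHG16 and above them in SNHG15.

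None of the 6 tested genes that overlap a host or start beside one was called, where 14.9% of all genes tested were called in either direction. So few genes cannot show whether neighbours differ from other genes. ZBTB37, which starts within GAS5 in the opposite direction, gave 54.4, 56.6 and 75.5 CPM in siControl and 53.2, 49.9 and 51.6 CPM in siPSF. It was lower without overlap, as were 17.8% of all genes tested, and did not pass the test (log2 fold change -0.27, adjusted p = 0.15, edgeR). EPB41L4A, whose gene contains EPB41L4A-AS1, had a log2 fold change of -0.14 (adjusted p = 0.46, edgeR), and its groups overlapped. ZNFX1 beside ZFAS1 (0.10), SLC3A2 beside SNHG1 (-0.09), TRNAU1AP beside SNHG12 (-0.01) and GAS5-AS1 (0.03) also overlapped and were not called. Whether the counting used strand is not stated. Reads on shared bases of GAS5 and ZBTB37, GAS5 and GAS5-AS1, EPB41L4A-AS1 and EPB41L4A, and SNHG12 and TRNAU1AP may have been counted for either gene. SNHG12 and TRNAU1AP share only 8 bases. All 3852 bases of SNHG6 lie within MCMDC2 on the opposite strand, which was not in the table. Reads from MCMDC2 may therefore have been counted for SNHG6.

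Of 18 other noncoding hosts tested, 7 were called higher and 0 lower (2 lower at an unadjusted p under 0.05, 0 lower by DESeq2 and limma), with a median log2 fold change of 0.29. Among the 15 with a mean of at least 1 CPM, 6 were called higher, with a median of 0.33 and a range of -0.29 to 0.80. SNHG18 and SNHG26 were not in the table and SNHG22 did not pass the filter. SNHG29, which carries SNORD49A and SNORD49B, was at 488, 442 and 380 CPM in siControl and 624, 643 and 667 CPM in siPSF (log2 fold change 0.56, adjusted p = 0.0029, edgeR). SNHG3 (0.80), SNHG7 (0.70) and SNHG32 (0.48) also rose without overlap. So did SNHG19 (adjusted p = 0.011, edgeR), SNHG25 (0.025) and DANCR (0.0085), whose adjusted p was larger, for DANCR only a little above the 0.0066 of SNHG32. SNHG25 lay below 1 CPM, at 0.313 CPM on average in siControl and 0.630 CPM in siPSF. SNHG14, with a log2 fold change of -0.29, and MEG8, with -0.85 at only 0.198 and 0.110 CPM, were not called.

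**Figure D4:**
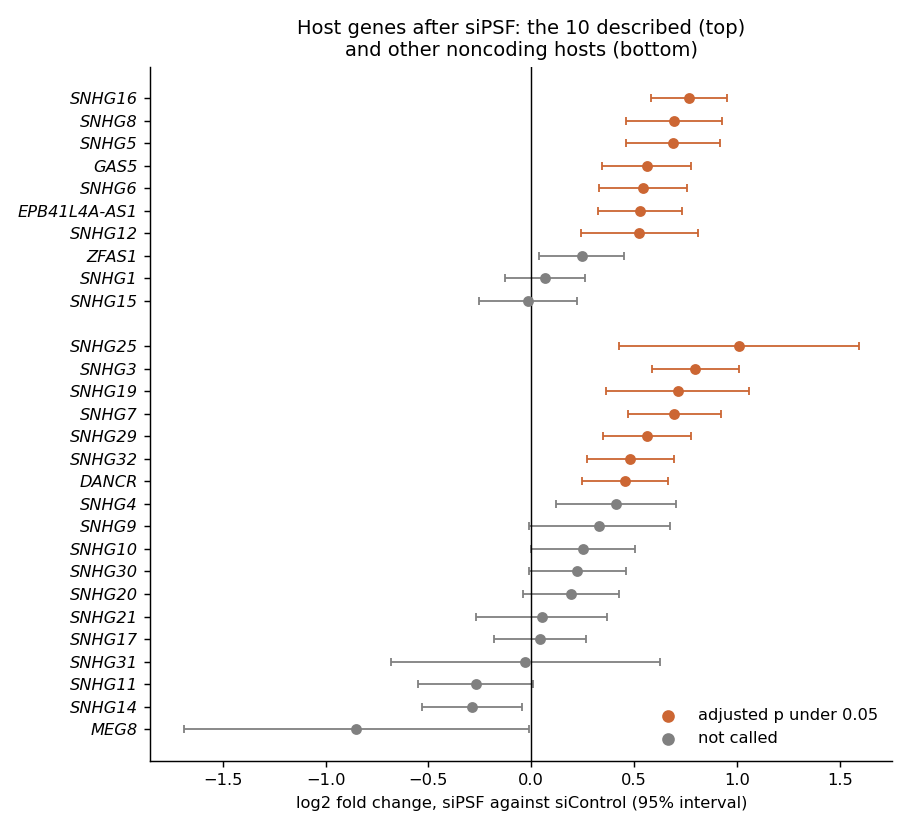
Log2 fold change of siPSF against siControl with its 95% interval for the 10 hosts (top) and 18 other noncoding snoRNA hosts (bottom), coloured where the adjusted p is under 0.05. The called hosts lie between 0.46 and 1.01, and ZFAS1, SNHG1, SNHG15 and 11 of the other hosts are not called.

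Protein-coding snoRNA hosts gave the comparison by exon function. All 28 ribosomal protein hosts tested were called higher and 0 lower (0 lower also at an unadjusted p under 0.05 and by DESeq2 and limma), with log2 fold changes of 0.44 to 0.89 and a median of 0.63, and RPL23A (0.89), RPL4 (0.83), RPL27A (0.78) and RPL5 (0.70) had the smallest p-values. Ribosomal protein genes share sequence with many pseudogenes, which makes their counts uncertain. Of 30 other coding hosts, 10 were called higher and 0 lower, with a median of 0.23. They were led by the chaperone HSPA8 (1.21), the elongation factor EEF2 (0.74), the ribosome-bound scaffold RACK1 (0.61) and the initiation factor EIF4A2 (0.61). No call of a lower level was made among these 30 at an unadjusted p or by DESeq2 or limma either.

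Over all 239 tested genes that hold a RefSeq snoRNA by position, a list drawn up after the data were seen, 60 were called higher and 22 lower, with a median log2 fold change of 0.04. The share called higher was 25.1%, beside 6.65% of all genes tested, and the share called lower was 9.21%, near the 8.27% of all genes. The set takes in the described hosts and other listed hosts that hold a snoRNA by position. Its higher calls therefore repeat calls given above, and the share without the listed hosts was not computed. The 32 long noncoding RNA genes among them had 14 called higher and 3 lower (median 0.37), and the 207 protein-coding genes 46 higher and 19 lower (median 0.02).

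A pyrimidine start by the definition above was found in 16 of 19 ribosomal protein hosts with a promoter sequence, 8 of 18 other noncoding hosts and 12 of 26 other coding hosts. These 18 are the listed noncoding hosts with a promoter sequence, tested or not, and differ from the 18 tested above. Of the tested hosts in the 4 lists with a promoter sequence, 31 of 40 with a pyrimidine start were called higher, and 10 of 28 without one. Without the ribosomal protein genes these became 15 of 24 and 7 of 25. Over all genes tested with a promoter sequence, 9.51% of 2985 with such a start were called higher and 5.54% of 10180 without. Among the hosts described here, SNHG5, SNHG8, SNHG12 and SNHG16 had the start and the rise and ZFAS1 the start alone, and GAS5 and EPB41L4A-AS1 rose without a match. These are counts with no test, and the definition was made with the values known.

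In edgeR few of the factors that act on snoRNAs and host RNA were called, where 6.65% of all genes tested were called higher and 8.27% lower. Of 20 snoRNP proteins and assembly factors, 1 was called higher and 0 lower (0 lower at an unadjusted p, by DESeq2 or by limma), with a median of 0.15. At an unadjusted p under 0.05, 5 were higher, beside 2835 of the 19694 genes tested. The called gene was the box C/D methyltransferase FBL (fibrillarin), at 175, 165 and 138 CPM in siControl and 197, 212 and 201 CPM in siPSF (log2 fold change 0.35, adjusted p = 0.030, edgeR). NOP58, a box C/D core protein that is also a host, came next (0.29, adjusted p = 0.056), followed by the assembly factor ZNHIT3 (0.22) and COIL (0.26), the scaffold of Cajal bodies. Of 18 factors of nonsense-mediated decay and the exon junction complex, 1 was higher (5.56%) and 2 were lower (11.1%), where limma on log2(FPKM + 0.5) called 6 lower. At an unadjusted p under 0.05, 3 were higher and 6 lower, beside 2835 and 3026 of the 19694 genes tested. Without overlap 5 were higher and 6 lower, as were 16.7% and 17.8% of all genes. The endonuclease SMG6 gave 82.0, 83.3 and 84.4 CPM in siControl and 66.6, 69.2 and 59.9 CPM in siPSF, without overlap (-0.35, adjusted p = 0.015, edgeR). The kinase SMG1, which phosphorylates UPF1, was lower (-0.36, adjusted p = 0.026), and the exon junction protein RBM8A was higher (0.32, adjusted p = 0.017). EIF4A3, the helicase of that complex, was not called (0.23, adjusted p = 0.062).

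Of 15 regulators of TOP mRNA translation, 0 were called higher (1 at an unadjusted p under 0.05, 0 by DESeq2 and limma) and 1 lower (2 by DESeq2, 3 by limma), a share of 6.67% beside 8.27% of all genes. This was the kinase MTOR, at 127, 136 and 137 CPM in siControl and 103, 116 and 109 CPM in siPSF (log2 fold change -0.28, adjusted p = 0.035, edgeR), and LARP4B followed (-0.26, adjusted p = 0.055). Of 10 exonucleases and cofactors none was called in edgeR, DESeq2 or limma, where edgeR called 6.65% of all genes tested higher and 8.27% lower. At an unadjusted p under 0.05, 1 was higher and 1 lower, beside 2835 and 3026 of the 19694 genes tested. The higher one was the exosome helicase MTREX (0.26, adjusted p = 0.070, edgeR) and the lower one the cytoplasmic 5′ exonuclease XRN1 (-0.29, adjusted p = 0.10). Medians of these 3 lists of decay factors and regulators were 0.01, 0.01 and 0.00.

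**Figure D5:**
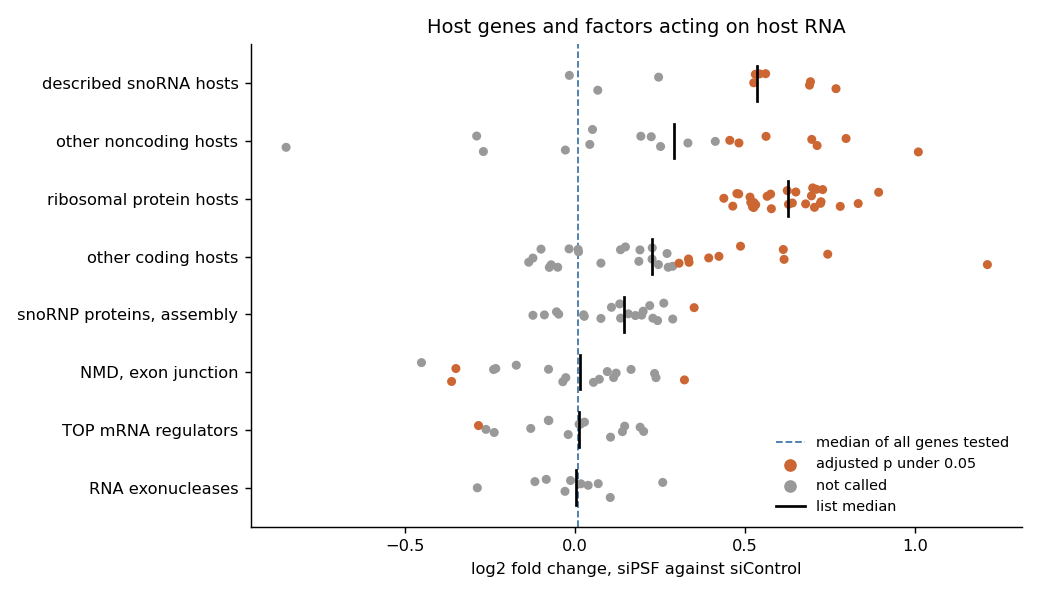
Log2 fold change of siPSF against siControl for each tested gene of 8 lists, coloured where the adjusted p is under 0.05, with a bar at each list's median and a dashed line at the median of all genes tested. The described hosts and the ribosomal protein hosts lie to the right, the decay, TOP and exonuclease lists lie around the dashed line, and the snoRNP list lies between, with a median of 0.15 and 16 of 20 genes above 0.

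The genes whose log2 CPM over the 6 libraries followed the mean of the 10 hosts most closely, out of the 10487 genes that averaged 10 CPM or more, were the signal peptidase subunit SEC11A (Pearson r 0.995), the dynein assembly factor DNAAF5 (0.995), the spliceosomal Sm protein SNRPF (0.994), TBX2-AS1 (0.993) and the mitochondrial import protein TIMM44 (0.993). With 6 libraries in 2 groups these values describe a shared group difference and shared order of libraries. SEC11A went from 149.9 to 238 CPM on average (log2 fold change 0.67, adjusted p = 0.0011, edgeR), and DNAAF5 had 0.23 (adjusted p = 0.067).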

How the data were processed

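The authors deposited 1 table with a read count and an FPKM value for each gene and library. Per the methods, poly(A) RNA was sequenced as paired ends, ribosomal reads were removed with Bowtie 2, the rest was mapped to hg38 with TopHat, and the authors counted tags on RefSeq genes to give counts and values per length and depth. The submitters' processing notes instead name Trimmomatic, HISAT2 2.1.0, StringTie 2.1.3b and GRCh38, and which of the pipelines made the deposited counts and FPKM is not stated, nor whether strand was used. The labels name a stranded kit and the methods another one. All 6 libraries were used, grouped by their labels, and 0 per-sample columns were left unused.

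Counts were filtered with filterByExpr (19694 of 21301 genes), scaled by TMM and tested over all genes with edgeR 4.0.16 (quasi-likelihood, no replicate block, Benjamini-Hochberg, threshold 0.05) in R 4.3.3. The biological coefficient of variation was 12.6%. CPM values use the TMM-scaled totals. With total counts over 101540520 in every library, each host had between 1905 and 107363 counts, so counting error was small beside the spread between libraries. Replicates were not alike within sampling noise (chi-square per degree of freedom of 22.6 or more). Standard errors and 95% intervals were built from edgeR's log2 fold change, F statistic and 12.2 degrees of freedom. They cover the spread between these libraries as edgeR models it, with information shared across genes, and not each gene's own spread alone. Alternatives were DESeq2's size factors, no filter, a replicate block, DESeq2 1.42.0, limma 3.58.1 on log2(FPKM + 0.5) and log2(FPKM + 0.1) of genes with a mean of at least 0.5 FPKM, and leaving out each library. The FPKM fold changes understate the change of low genes. Ratios within a library were compared by exact permutation with scipy 1.17.1. The fit was tested on simulated data.

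The members, lists and tests were chosen with earlier results of these data known. Named were all 10 hosts, SFPQ, the 4 members of each other list with the smallest p (2 for exonucleases and TOP regulators), snoRNAs nested in the hosts, neighbouring genes and the 5 genes most alike in profile. SNHG14, SNHG19, SNHG25, DANCR and MEG8 were added after their values were seen. NOP56, NOP58 and DKC1 are in 2 lists. Symbols of 93.5% of genes were found in the RefSeq gene table. Nested snoRNAs were placed by position in RefSeq, since a strand was not given for all of them, and were read on the strand of the host. Box C was searched as TGATG after a longer form was missing in an example. A further list of cell type markers is not reported here.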

Additional observations from a re-analysis of the deposited data

How the results depend on the processing

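GAS5, SNHG5, SNHG6, SNHG8, SNHG16 and EPB41L4A-AS1 were called higher in all 6 fits that left out 1 library and under all 6 other alternatives, and SNHG12 in 3 of 6 and in 6 of 6. The number of hosts called higher was 6 to 7 without 1 library and 7 or 8 otherwise, and the median of all genes moved by at most 0.07 on the log2 scale, to -0.06 in limma on FPKM, where the hosts' median was 0.46. SNHG15 was not called in any fit, and its log2 fold change of -0.02 turned to 0.11 without siControl replicate 1 and to 0.0023 without siPSF replicate 1, in a range of -0.13 to 0.11 over the fits without 1 library. GAS5-AS1 (range -0.11 to 0.14 without 1 library) turned to -0.11 without siControl replicate 3, -0.068 without siPSF replicate 1, -0.034 and -0.044 in limma with 0.5 and 0.1 added, and TRNAU1AP (range -0.084 to 0.088) to 0.088 without siControl replicate 1 and 0.058 without siPSF replicate 3; the cause was not tested. Deviations of same-numbered libraries correlated at -0.02, 0.20 and 0.09. Differently numbered ones gave -0.06 to 0.10 for replicate 1, -0.17 to -0.04 for replicate 2 and -0.25 to 0.15 for replicate 3. With 3 libraries a group, whether same-numbered libraries share more than a number cannot be told. With the replicate block 8 hosts were called higher (ZFAS1, 0.25, adjusted p = 0.049), 2 snoRNP genes were higher, 1 other noncoding host was lower and 4 decay factors were lower. Limma, which tested only 14830 genes, called 736 and 737 genes higher with 0.5 and 0.1 added, 6 and 6 decay factors lower, 3 and 3 TOP regulators lower, 4 and 4 nested snoRNAs higher and 2 and 3 lower, and with 0.1 added 0 decay factors higher. DESeq2's Wald test, with no adjusted p for 2065 genes, called 2 snoRNP genes higher and 2 TOP regulators lower, and without the filter 0 nested snoRNAs were higher. Leaving out 1 library gave 572 (without siControl replicate 2) to 1405 genes higher over all genes, with 732 without siControl replicate 3 and 845 without siPSF replicate 1, and 928 (without siControl replicate 2) to 1735 lower, with 1022 without siControl replicate 3. It gave 6 (without siControl replicate 2) to 10 other coding hosts higher, and 5 to 7 other noncoding hosts higher and 0 to 1 lower, the 1 without siControl replicate 1. The snoRNP genes gave 0 to 1 higher, with FBL lost without siControl replicate 2, siControl replicate 3 or siPSF replicate 1. Decay factors gave 0 to 1 higher, with 0 without siControl replicate 2, siPSF replicate 1 or siPSF replicate 2, and 0 (without siControl replicate 2) to 3 lower, with 1 without siControl replicate 3 or siPSF replicate 1. TOP regulators gave 0 (without siControl replicate 2 or siPSF replicate 1) to 2 lower (without siControl replicate 1). Nested snoRNAs gave 0 to 1 higher. Low counts limit the nested snoRNAs, 4 of which failed the filter, more than the hosts.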
